A study of Mus musculus with 4 samples.

Results

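The genes that control the passage of a cell through G1 were examined in pro-B cells, the B-lineage precursors in which immunoglobulin heavy-chain genes are rearranged. Members were taken from a list of 10 genes, namely the D cyclins Ccnd1, Ccnd2 and Ccnd3, the kinases Cdk4 and Cdk6, the Cip/Kip inhibitors Cdkn1a and Cdkn1b, the INK4 inhibitors Cdkn2c and Cdkn2d, and the pocket protein gene Rb1. A probe set, the group of array probes summarised to 1 value, was kept when its only annotated symbol was one of these genes. This gave 10 probe sets of 9 genes, out of 34760 probe sets in the table and 21640 with a single symbol, which cover 19937 genes. Cdkn1b had 2 probe sets, the other measured genes had 1 each, and Cdkn1a had none of its own, because its probe set carries a second symbol, so no value is given for it.

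Wild-type C57BL/6 mice were the source of all 4 samples, in which bone marrow cells carrying both B220 and c-Kit were isolated with antibodies and their RNA was hybridized to Affymetrix Mouse Gene 1.0 ST arrays, 1 per sample. No treatment of the mice is named in the labels and their age is not given there. The samples form 1 group, so that no comparison between groups was possible. Whether each replicate is a separate animal or a pool is not stated, and the spread between the arrays may be technical.

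The array of replicate 3 stood apart in Xist, the RNA of the inactive X chromosome, with a log2 intensity of 5.48 against 13.04 to 13.17 on the other arrays. Pearson's r between arrays was 0.986 to 0.989 across probe sets, which are not independent replicates. Of the early B-cell markers, 11 of 12 with a probe set were above background. Cd79a, a signalling chain of the B-cell receptor, was at 12.21 ± 0.39 (SD, n = 4). Vpreb1 was at 7.29 ± 0.41 (SD, n = 4), 0.30 above the line on its lowest array. Rag2, a subunit of the recombinase, passed the line on 3 of the 4 arrays. Every marker with a probe set was also above background for erythroid cells (9 of 9) and granulocytes and monocytes (12 of 12). So it was for T and NK cells (6 of 6), megakaryocytes and platelets (4 of 4) and plasmacytoid dendritic cells (4 of 4). Of the stem and progenitor cell markers 4 of 6 passed, where 63.5% of all single-symbol probe sets did. The T-cell markers Cd8a, Cd4 and Cd3g passed narrowly, 0.21, 0.25 and 0.26 above the line on their lowest array. Elane had the highest mean of the granulocyte and monocyte markers, 13.68 ± 0.17 (SD, n = 4), and Camp the lowest, 10.01. Of the erythroid markers Car1 had the highest mean, 13.74 ± 0.37 (SD, n = 4), and Alas2 the lowest, 7.77. The early B-cell markers ran from a mean of 7.10 for Rag2 to 12.64 for Cd79b. Since probes differ in their response, these levels do not rank the cell types. In such bulk RNA, fewer cells of a type and less RNA per cell cannot be told apart.

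Cyclins of the D type are made in response to growth signals and activate Cdk4 and Cdk6. These kinases phosphorylate the retinoblastoma protein encoded by Rb1, which releases E2F transcription factors and allows the genes of DNA synthesis to be expressed. INK4 proteins bind Cdk4 and Cdk6 directly and keep the D cyclins away, whereas Cip/Kip proteins bind assembled cyclin-kinase complexes. In the mouse bone marrow, precursors divide under the signals of interleukin 7 and of the pre-B-cell receptor, cyclin D3 is needed for the expansion of pre-B cells, and light-chain genes are rearranged once the cells have left the cycle.

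All 10 member probe sets were above background on every array, where 63.5% of the single-symbol probe sets were. As background line served, on each array, the 95th percentile of the receptor genes for smell, pheromones and taste, which marrow cells are not known to use, and it lay at log2 intensities of 6.53 to 6.62. The member nearest to it was the probe set 10542317 of Cdkn1b, 0.78 above the line on the array of replicate 2. The genes differed in how steady they were. Cdk4 hardly varied between the arrays, while Ccnd3, Cdkn1b, Cdkn2c and Cdkn2d were all highest on the array of replicate 1, where Ccnd2 and Cdk6 were lowest. Rb1 varied little. Intensities of different probe sets are not compared here, since probes differ in their response.

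**Figure D1:**
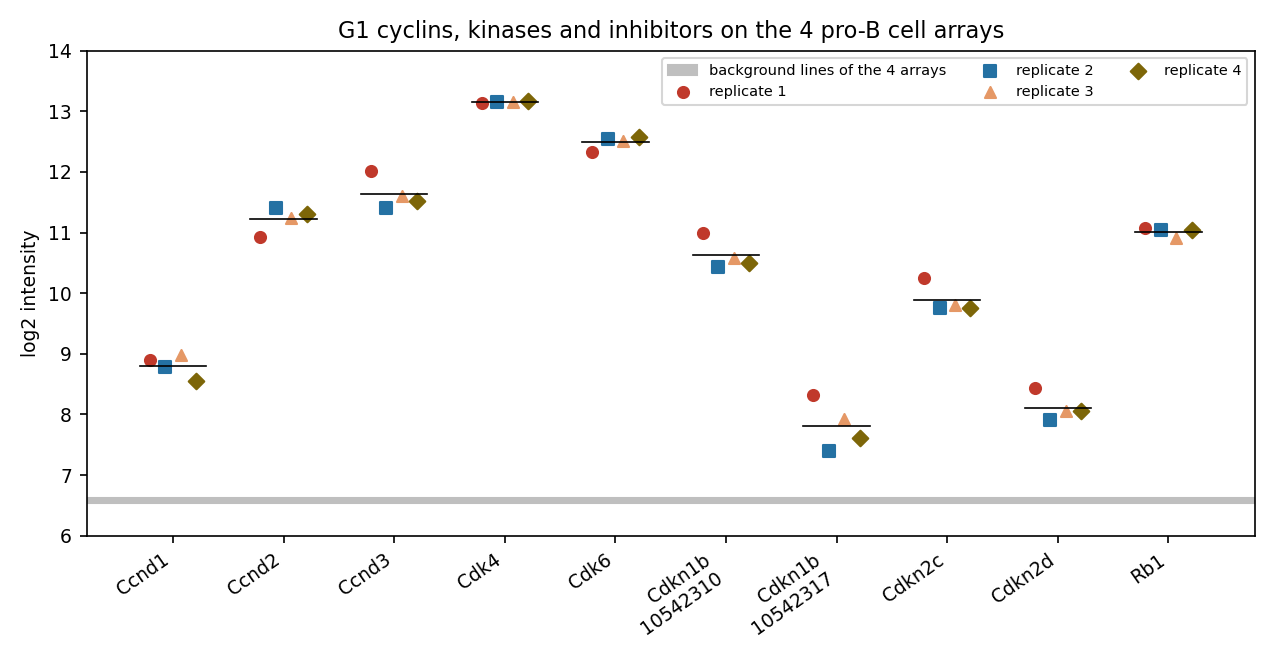
Log2 intensity (vertical axis) of the 10 member probe sets (horizontal axis) on the 4 arrays, all from wild-type pro-B cells. Points are arrays, short bars are means, and the grey band spans the background lines of the arrays, 6.53 to 6.62. All points lie above the band, and the heights of different genes are not comparable.

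The sequences just before the start of transcription are shown for 3 of the members that were highest on the array of replicate 1, Ccnd3, Cdkn1b and Cdkn2c, and for Cdk4, the steadiest member. They come from RefSeq on GRCm38.p6, which held entries for 7 of the 10 listed genes, and each gives the 250 bases before the outermost annotated start of its gene. Capitals mark every match on either strand to the E2F motifs TTTNGCGC and TTTCCCGC, the FOXO motif TGTTTAC, the STAT motif TTCNNNGAA, the E-box CACGTG, which is bound by Myc with Max, and the GC box GGGCGG. None of these matches overlaps another.
Ccnd3, chr17:47504801-47505050, plus strand: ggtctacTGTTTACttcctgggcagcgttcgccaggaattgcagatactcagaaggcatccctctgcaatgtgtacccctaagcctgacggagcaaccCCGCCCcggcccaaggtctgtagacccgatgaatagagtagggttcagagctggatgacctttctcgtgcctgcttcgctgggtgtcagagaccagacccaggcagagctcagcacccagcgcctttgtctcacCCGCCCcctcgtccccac
Cdkn1b, chr6:134920151-134920400, plus strand: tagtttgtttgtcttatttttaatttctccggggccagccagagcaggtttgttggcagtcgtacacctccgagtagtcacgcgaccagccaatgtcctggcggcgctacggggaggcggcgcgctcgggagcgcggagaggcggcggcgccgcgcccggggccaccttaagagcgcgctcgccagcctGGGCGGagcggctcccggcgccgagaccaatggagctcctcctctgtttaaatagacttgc
Cdkn2c, chr4:109666757-109667006, minus strand: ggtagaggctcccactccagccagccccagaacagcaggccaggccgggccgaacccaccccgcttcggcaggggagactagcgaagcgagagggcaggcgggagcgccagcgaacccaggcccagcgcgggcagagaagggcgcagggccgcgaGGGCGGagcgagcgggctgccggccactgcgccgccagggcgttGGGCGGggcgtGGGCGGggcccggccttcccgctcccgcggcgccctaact
Cdk4, chr10:127063285-127063534, plus strand: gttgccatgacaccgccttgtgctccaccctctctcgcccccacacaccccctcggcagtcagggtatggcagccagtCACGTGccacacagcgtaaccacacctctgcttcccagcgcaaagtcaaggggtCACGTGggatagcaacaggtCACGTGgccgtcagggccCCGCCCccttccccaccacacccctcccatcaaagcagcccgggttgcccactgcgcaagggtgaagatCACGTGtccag

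The Cdk4 window held 4 E-boxes, the nearest of them ending 6 bases before the start. Of 32851 promoter windows of the same length, 6.02% held at least 1 E-box and 7 windows held 4 or more. The Ccnd3 window held 1 FOXO motif, found in 3.17% of all windows, and 2 GC boxes. The windows of Cdkn1b and Cdkn2c held 1 and 3 GC boxes, a motif found in 32.7% of all windows. Neither E2F motif (1.13% and 0.895% of all windows) nor the STAT motif (7.02%) was found in the 4 windows. Their GC content was 59.6% in Ccnd3, 64.4% in Cdkn1b, 77.2% in Cdkn2c and 64.4% in Cdk4, where the median of all windows was 52.4%. A match to letters is not a bound site, and a link between these motifs and the spread of the genes was not tested.

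Among the D cyclins, Ccnd3 and Ccnd2 lay in opposite directions on the array of replicate 1. Ccnd3 had log2 intensities of 12.02, 11.41, 11.61 and 11.52 on the arrays of replicates 1 to 4, with a mean of 11.64 ± 0.27 (SD, n = 4). The array of replicate 1 was the highest and stood 0.51 above the mean of the other arrays, a difference of 1.42-fold. Ccnd2, the D cyclin that responds to cytokine signals in lymphocytes, had log2 intensities of 10.92, 11.40, 11.25 and 11.31, with a mean of 11.22 ± 0.21 (SD, n = 4). Here the array of replicate 1 was the lowest, 0.40 below the mean of the others on the log2 scale, or 1.32-fold lower. Replicate 2 had the highest Ccnd2 and the lowest Ccnd3 value. Ccnd1 did not follow either gene. Its log2 intensities were 8.90, 8.78, 8.99 and 8.56, highest on the array of replicate 3 and lowest on that of replicate 4, with a mean of 8.81 ± 0.19 (SD, n = 4).

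The kinases had smaller SDs than the cyclins. Cdk4 had log2 intensities of 13.13, 13.16, 13.15 and 13.16, a range of 0.03 over the arrays and a mean of 13.15. Its SD of 0.014 (n = 4) was larger than that of 0.31% of the 13744 single-symbol probe sets above background, and it was 0.031 with median centring of the arrays. Cdk6, which is abundant in blood progenitors, had log2 intensities of 12.34, 12.55, 12.50 and 12.57, with a mean of 12.49 ± 0.11 (SD, n = 4). Its lowest value was on the array of replicate 1, 0.20 below the mean of the others, and the other arrays lay within 0.07 of each other.

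The inhibitors shared 1 pattern, with the highest value of each probe set on the array of replicate 1 and the lowest on that of replicate 2. Cdkn1b encodes p27, the inhibitor that accumulates in resting lymphocytes, and its probe set 10542310 had log2 intensities of 10.99, 10.44, 10.58 and 10.49, with a mean of 10.63 ± 0.25 (SD, n = 4). Its second probe set, 10542317, had 8.32, 7.40, 7.93 and 7.61, with a mean of 7.82 ± 0.40 (SD, n = 4), and so ordered the arrays in the same way. Replicate 1 stood 0.48 and 0.67 above the mean of the other arrays in these probe sets, which belong to 1 gene and are not independent. Cdkn2c, which encodes the INK4 protein p18, had log2 intensities of 10.24, 9.75, 9.80 and 9.76, with a mean of 9.89 ± 0.24 (SD, n = 4). The arrays of replicates 2 to 4 lay within 0.055 of each other, and that of replicate 1 stood 0.47 above their mean. Cdkn2d, which encodes the INK4 protein p19, had log2 intensities of 8.44, 7.91, 8.05 and 8.05, with a mean of 8.11 ± 0.23 (SD, n = 4), and a shift of 0.44 on the array of replicate 1.

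Rb1, the substrate of the kinases, had log2 intensities of 11.07, 11.04, 10.91 and 11.04, with a mean of 11.02 ± 0.07 (SD, n = 4). Only the array of replicate 3 was apart, 0.14 below the mean of the others. The order of the arrays was not that of the inhibitors.

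**Figure D2:**
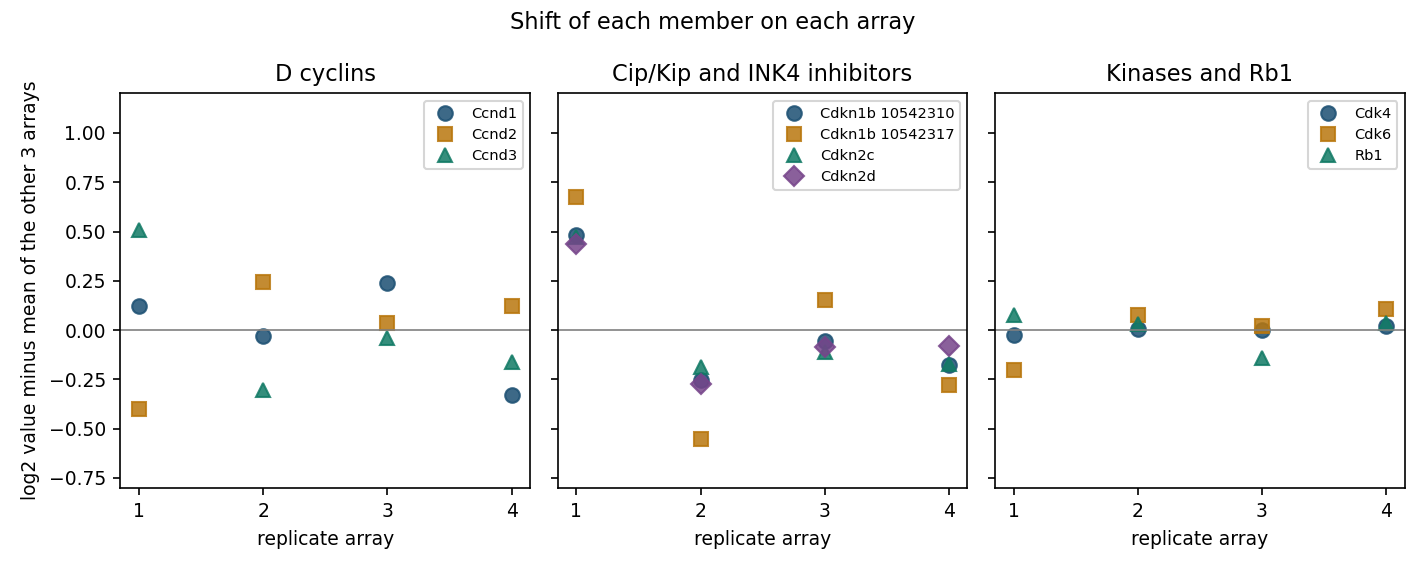
Shift of each member probe set, its log2 value on an array less the average of the remaining 3 (vertical axis), by replicate array (horizontal axis), in panels for the D cyclins, the inhibitors, and the kinases with Rb1. On the array of replicate 1 the 4 inhibitor probe sets lie between 0.44 and 0.67, Ccnd3 at 0.51 and Ccnd2 at -0.40, while Cdk4 lies at -0.03 and the widest shift of Rb1 is -0.14 on the array of replicate 3.

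The median SD of the 10 member probe sets was 0.22 on the log2 scale, beside 0.11 for all single-symbol probe sets above background. The SDs ran from 0.014 for Cdk4 to 0.40 for the probe set 10542317 of Cdkn1b. A range over the arrays of at least 0.5, or 1.41-fold, was found in 4 of the 10 probe sets, against 11.9% of all single-symbol probe sets above background. These were Ccnd3, both probe sets of Cdkn1b, and Cdkn2d. Cdkn2c at 0.49 and Ccnd2 at 0.48 lay just below this limit. When replicate 1 was left out, the members had a median SD of 0.077, beside 0.0958 for all, and the range reached 0.5 in 1 probe set, 10542317 of Cdkn1b, against 4.92% of all. Leaving out replicate 2 gave 2 such probe sets, against 8.96% of all. Leaving out replicate 3, the array apart in Xist, gave 4, against 9.61% of all, with a median SD of 0.27 for the members and 0.113 for all. On the array of replicate 1, 5 of the 10 probe sets were higher than the mean of the other arrays by at least 0.3, against 7.81% of all, and 1 was lower by as much, against 6.50% of all. This limit of 0.3 was set after the values were seen. The median shift of the members on that array was 0.28, beside 0.01 for all probe sets.

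**Figure D3:**
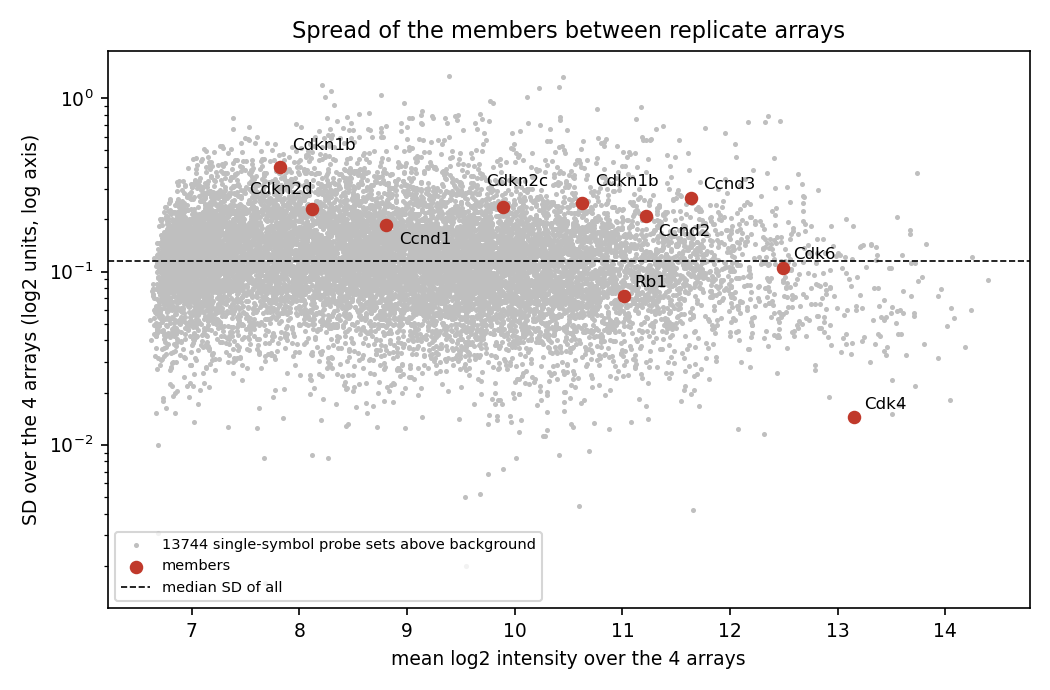
SD over the 4 arrays (vertical axis, log scale, in log2 units) against the mean log2 intensity (horizontal axis) for the member probe sets and for all 13744 single-symbol probe sets above background. The dashed line is the median SD of all, 0.11. Cdk4 lies far below it and Ccnd3, Cdkn1b, Cdkn2c, Cdkn2d, Ccnd2 and Ccnd1 above it.

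Markers of several cell types moved with the array of replicate 1. The early B-cell markers above background were higher there than the mean of the other arrays in 11 of 11 cases. Their median shift was 0.92, beside 0.01 for all single-symbol probe sets above background. The summed linear intensity of all 12 early B-cell markers with a probe set, Rag2 included, was 35692 on that array against 16604 to 24892 on the others. Cd79a had log2 intensities of 12.64, 12.31, 12.18 and 11.71 and its partner chain Cd79b 13.02, 12.56, 12.80 and 12.17, both highest on the array of replicate 1 and lowest on that of replicate 4. Later B-cell markers were higher in 5 of 6 cases, with a median shift of 0.38. Erythroid markers were lower in 9 of 9 cases, with a median shift of -1.31 and a summed linear intensity of 11867 against 22174 to 25880. Gata1, the main erythroid transcription factor, had log2 intensities of 8.15, 9.84, 9.17 and 9.38, and Klf1, which activates globin genes, 7.66, 8.88, 9.14 and 8.88. Granulocyte and monocyte markers were lower in 7 of 12 cases, with a median shift of -0.03, and their summed linear intensity was 64387 against 58626 to 74833. The median shift on that array was 0.31 for megakaryocyte markers, 0.02 for plasmacytoid dendritic cell markers and 0.11 for stem cell markers. It was 0.02 for mitosis genes and -0.06 for housekeeping genes. For T and NK cell markers it was -0.08, but the list was split. The NK cell markers Ncr1 and Klrb1c had shifts of 0.82 and 1.05. The T-cell markers Cd3e, Cd3g, Cd4 and Cd8a had -0.28, -0.30, -0.12 and -0.05. On the arrays of replicates 2, 3 and 4, the median shift of the early B-cell markers was -0.28, 0.13 and -0.62. The shifts of Ccnd3 on these arrays were -0.31, -0.04 and -0.16. Those of the probe set 10542310 of Cdkn1b were -0.25, -0.06 and -0.18. The part of these cell types in the shifts of Ccnd3, Ccnd2 and the inhibitors was not tested.

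Around the members, 51 of 52 genes of the G1 and E2F pathway with a probe set were above background, where 63.5% of all single-symbol probe sets were. A gene, here and in the marker lists, was counted if any of its probe sets passed. They came from 8 lists with 54 entries. Ccna1, a cyclin of the germ line, was the only one below the line, with log2 intensities of 6.18, 6.52, 6.10 and 6.45. The median SD of the 51 genes was 0.10, and 4 of them, E2f4, Foxo1, Mdm2 and Tk1, had a range of at least 0.5, where 11.9% of all single-symbol probe sets above background did. The other inhibitors of both families lay close to the background line. Cdkn2a had log2 intensities of 7.02, 6.94, 7.07 and 6.96, Cdkn2b had 7.09, 7.13, 7.15 and 6.98, and Cdkn1c had 7.18, 7.18, 7.07 and 7.20. With the 99th percentile as the line 48 of the 52 genes passed. The pocket proteins Rbl1 (11.03 ± 0.08) and Rbl2 (9.75 ± 0.06, SD, n = 4) had SDs like that of Rb1.

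The cyclins and kinase of the next step were above background apart from Ccna1, where 63.5% of all single-symbol probe sets were. Ccne1, which encodes an E cyclin that activates Cdk2, had log2 intensities of 10.27, 10.73, 10.70 and 10.66, lowest on the array of replicate 1 like Ccnd2. Ccne2 (9.94 ± 0.12), Ccna2 (12.40 ± 0.06), Cdk2 (10.48 ± 0.03) and the phosphatase Cdc25a (10.58 ± 0.13, SD, n = 4) varied less. All 3 subunits of the kinase that activates the cyclin-dependent kinases were above background, and Mnat1 had a range of 0.33 and Ccnh of 0.16. So were all 5 ubiquitin ligase parts that turn over G1 proteins, where the widest ranges were 0.23 for Skp2, which targets p27 for destruction, and 0.20 for its cofactor Cks1b.

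On the array of replicate 1, 3 of the 51 pathway genes were higher than the mean of the other arrays by at least 0.3 and 4 were lower by as much, shares near the 7.81% and 6.50% of all single-symbol probe sets above background. The counts thus do not set the pathway apart, and the genes behind them are given as values. Those higher were Foxo1, Mdm2 and E2f7, and those lower were Ccne1, E2f4, Tk1 and Mcm7. Foxo1, a transcription factor of early B cells that is known to activate Cdkn1b, had log2 intensities of 10.22, 9.48, 9.62 and 9.05, a range of 1.17. It was highest on the array of replicate 1 and lowest on that of replicate 4, as were Cd79a and Cd79b. A link between Foxo1 and Cdkn1b was not tested. Mdm2, the ligase that restrains p53, had log2 intensities of 10.25, 9.85, 9.73 and 9.98. E2f4, a factor that acts mainly as a repressor with pocket proteins, had 10.61, 11.19, 10.96 and 10.93, the opposite order of the highest and lowest arrays to Cdkn1b. E2f6 had a range of 0.39, with its highest value on the array of replicate 3.

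Among the E2F target genes, 13 of 14 had a replicate 1 value below the mean of the other arrays, the median shift being -0.17, and 12 of 14 were higher on each of the arrays of replicates 2 and 4, with a median shift of 0.06 on both. Tk1, thymidine kinase, had log2 intensities of 10.13, 10.79, 10.57 and 10.65, and Mcm7, a subunit of the replicative helicase, had 11.57, 11.88, 11.90 and 12.02. For Tk1 and Mcm7 the array of replicate 1 was thus the lowest, as for Ccnd2 and Cdk6 and unlike the inhibitors. The mitosis genes were steady at the same time, with a median SD of 0.057 and Mki67, the proliferation antigen, at 12.48, 12.37, 12.47 and 12.48. These counts describe 4 arrays, and genes of a list are not independent of each other.

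**Figure D4:**
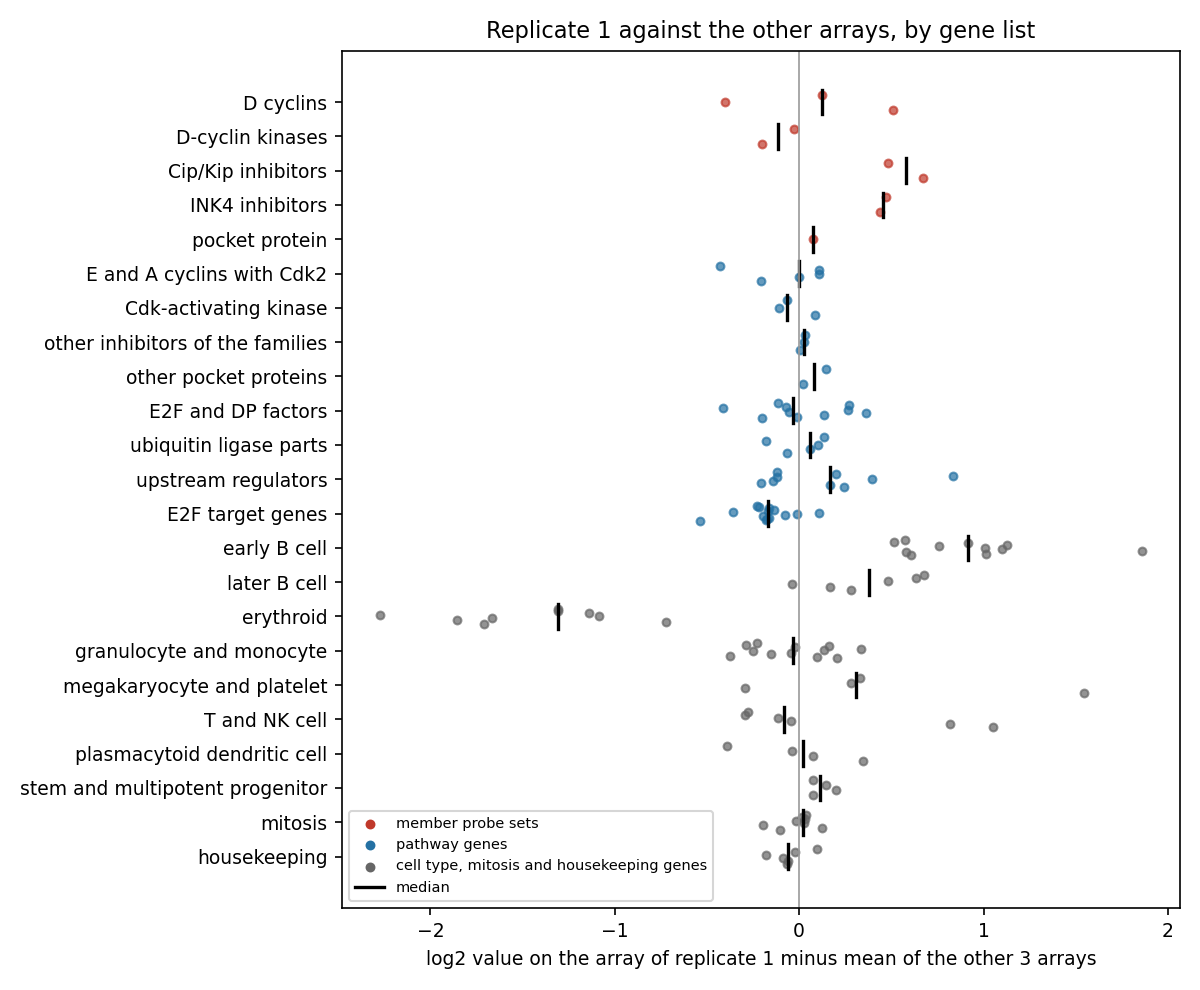
Log2 value on the array of replicate 1 minus the mean of the other 3 arrays (horizontal axis), by gene list (vertical axis), for member probe sets, pathway genes and marker genes above background. Points are probe sets, 1 per gene except for Cdkn1b, and black bars are medians. Over all single-symbol probe sets above background, the median was 0.01. All points of the INK4 and Cip/Kip inhibitors and of the early B-cell markers (median 0.92) lie right of 0, while 13 of 14 E2F target genes (median -0.17) and all erythroid markers (median -1.31) lie left of it.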

How the data were processed

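The authors deposited log2 intensities per probe set after background correction and normalization with RMA. Their methods also name a filter on probe sets with low expression, and values down to 2.27 stand in the table. Versions, and which arrays were normalized together, are not stated in the sources. Platform annotation gave 21640 probe sets 1 symbol, 1321 several and 11799 none that is listed. RefSeq gene identifiers matched 21553 of the first kind and changed 0 symbols. The background line came from 1246 receptor probe sets, 45 of which passed it on all 4 arrays. A shift is a value on 1 array minus the mean of the other arrays. Pathway and marker genes were given by the probe set with the highest mean.

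The genes named were all members, the lists of E and A cyclins, other inhibitors and other pocket proteins, pathway genes below background, the 2 widest ranges of each pathway list, and the first 2 measured markers of a list. E2f7, Rag2, Vpreb1, Elane, Camp, Car1, Alas2, Cd4, Cd8a, Ncr1, Klrb1c and Plk1 were named after their values were seen. Members and lists were chosen with earlier results of these data known.

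Alternatives were other background lines, a one-sided limma test with Benjamini-Hochberg adjustment, other normalizations, other range limits and leaving out each array. Python 3.11.15 with pandas 2.3.3 and numpy 2.4.6, and limma 3.58.1 in R 4.3.3, were used. The limma test was tested on simulated data. The number of arrays limits the precision, and 0 value columns were left without a sample.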

Additional observations from a re-analysis of the deposited data

Results flagged for a closer look

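Dixon's ratio is the gap of an outermost array to its nearest neighbour over the range of the arrays. It can thus mark small differences too. Of 51 named probe sets, 6 had 1 array set apart by this ratio, where chance gives about 1 in 20, or 2.55. Among the members this held for Cdkn2c, at 10.24 on the array of replicate 1 against a mean of 9.77 on the others. In the pathway lists it held for Ccne1, at 10.27 on the array of replicate 1 (mean of the others 10.70), and for Cdkn1c, at 7.07 on that of replicate 3 (7.19). In the marker lists it held for Pf4, a platelet chemokine, at 7.90 on the array of replicate 4 (8.65), for Mki67, at 12.37 on that of replicate 2 (12.48), and for Ppia, a housekeeping gene, at 13.31 on that of replicate 3 (13.22).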

How the results depend on the processing

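No paired analysis was possible because the 4 arrays form a single group. All 10 member probe sets were above background under each of the 11 alternatives run, and the count of pathway genes was 48 to 51. Leaving out each replicate in turn gave a median SD of the members of 0.077 to 0.27, lowest without replicate 1, and other normalizations gave 0.21 to 0.22. The count of member probe sets with a range of at least 0.5 was 1 to 4 with each replicate left out in turn, 5 with median centring, 7 with a limit of 0.3 (38.3% of all) and 0 with a limit of 1.0 (1.64% of all). These limits differ by construction, and fewer arrays give smaller ranges. The median shift of the members was 0.26 to 0.34 on the array of replicate 1, -0.22 to -0.02 on that of replicate 2, -0.09 to 0.06 on that of replicate 3 and -0.23 to -0.004 on that of replicate 4 with each of the others left out, so that only the sign on the array of replicate 3 changed. Each member kept the sign of its shift on the array of replicate 1 under quantile normalization, median centring and cyclic loess. With 1 group, no difference between conditions could be measured.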
